A study of Mus musculus with 2 samples.

Results

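Prefix incomplete matches are transcript models whose introns are the first introns of a longer transcript, in the same order, and which stop before the remaining ones. In the hippocampus of young mice 3761 of 122607 models in replicate 1 and 2992 of 115971 models in replicate 2 carried this class in an annotated gene. They lay in 2705 genes in replicate 1 and 2242 genes in replicate 2. They were chosen by the class deposited with each model, and their 3′ ends, read from the matching annotation, were not used for the choice. A model of replicate 1 was paired with one of replicate 2 when gene and full chain of introns were identical.

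Mice of the B6CASTF1/J strain, an F1 cross of C57BL/6J and CAST/EiJ, gave the tissue, labelled as layer of hippocampus. All were males 14 days old, with no treatment named. The 2 long-read libraries are biological replicates 1 and 2 of this single group. Each was made from 3 pooled males and 2 µg of total RNA. Labels of the samples list separate animals, but a description at the level of the experiment gives those of replicate 1 for both, so differences between replicates 1 and 2 could be purely technical.

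A messenger RNA ends where the cleavage and polyadenylation machinery cuts it, usually a short way after a hexamer such as AATAAA or ATTAAA, the poly(A) signal. Many genes hold such signals inside introns as well, and the U1 small nuclear ribonucleoprotein is known to hold back their use. Cutting inside an intron gives a shorter message that can encode a protein without its C-terminal end. Neurons are known for using alternative ends widely.

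Replicate 1 held 821324 mouse reads and replicate 2 held 743862, the ERCC spike-in controls left out. All 8 listed markers of hippocampal pyramidal and granule neurons had reads, with sums of 2917 and 2763 reads in replicates 1 and 2. The 5 myelin markers had a sum of 4581 reads in replicate 1 against 2088 in replicate 2, and the 3 choroid plexus markers 162 against 67. Of the choroid plexus reads, Ttr alone gave 159 in replicate 1 and 65 in replicate 2. In such bulk tissue, more cells of a type and more RNA per cell cannot be told apart, and the part of these cells in the differences between the libraries below was not tested.

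Different kinds of sequence stood at the ends of the Prefix chains with many reads. The first set is shown because it holds a run of A just after an end inside an exon. Each line gives the last 5 bases of the model in lower case, the next 20 genomic bases in capitals and 5 more bases in lower case, 5′ to 3′ on the strand of the gene, read from GENCODE M21 exons on mm10.
Son: agcatAAAAAGCACAAAAACAAAAAgaaga
Phf20: gccaaAGAAGAAAAAGAAAAAGAAAaagaa
Kmt2e: accagAAGGAAAAAAGGAAAAAAAGagaaa
Eif5: acaggAAAGAAAGAAAAGGAAAAGAaaaat
Hsp90aa1: gaaaaAGAAGAAGATAAAGGAAAAGtacat
Ccnl2: taatcAACTACATTTAACTACTAAGtagca
These windows lie at chr16:91654695-91654724 (Son), chr2:156292524-156292553 (Phf20), chr5:23485447-23485476 (Kmt2e), chr12:111541723-111541752 (Eif5), chr12:110694150-110694179 (Hsp90aa1, minus strand) and chr4:155820014-155820043 (Ccnl2). The capitals hold 16 A of 20 in Son and in Phf20, 15 in Kmt2e and in Eif5 and 13 in Hsp90aa1. Ccnl2, with 9 A, is shown as an end inside an exon without such a run. Other exon ends read in the same way are not shown. They had 11 A in Ncor1, 9 in Map1b, 8 in Hsp90ab1 and 1 in Gm21988.

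The second set is shown because a poly(A) signal precedes the end. Each line holds the last 30 bases of the model, with the AATAAA or ATTAAA nearest to the end in capitals where there is one.
Map3k10: atgttataagtatgatagcataaATTAAAa
Bcan: ataaatctgtATTAAActgctttgtaccca
Sik3: agggaagttgaAATAAAatggttttcatgg
Caprin1: cactcAATAAAtacttgttgaatgaatgaa
Ddx5: cttaactAATAAAtgtgatttttctcccca
Pnisr: AATAAAactatttagttcatttttgttaaa
2610005L07Rik: atagaactgtttgaaatcacaacagactat
They lie at chr7:27664180-27664209 (Map3k10, minus strand), chr3:87992514-87992543 (Bcan, minus), chr9:46202856-46202885 (Sik3, plus), chr2:103767107-103767136 (Caprin1, minus), chr11:106780355-106780384 (Ddx5, minus), chr4:21875227-21875256 (Pnisr, plus) and chr8:20395392-20395421 (2610005L07Rik, minus). The signal ends 13 to 24 bases before the end in Bcan, Sik3, Caprin1, Ddx5 and Pnisr, and 1 base before it in Map3k10. The 2610005L07Rik end, shown for contrast, has no such hexamer in these letters.

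The third set holds ends that coincide with the last base of an annotated exon. The last 10 bases of that exon are in lower case and the first 20 bases of the next exon of the longer transcript, which the models lack, are in capitals.
Eif5b: aaaagaagagGAACGATTAGAACAAGAAAA
Sec62: ttccaaaaagGAGGAAACTCCAGGAACTCC
Kif5c: tggaggaacgGGGAAGCTGTACCCGAGGAC
The exon parts lie at chr1:38021802-38021811 (Eif5b), chr3:30810017-30810026 (Sec62) and chr2:49710859-49710868 (Kif5c), all on the plus strand. The parts from the next exon lie at chr1:38022164-38022183 (Eif5b), chr3:30810445-30810464 (Sec62) and chr2:49722977-49722996 (Kif5c). They hold 12 A of 20 in Eif5b, 7 in Sec62 and 5 in Kif5c.

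Prefix models were a small and mostly thin class. They held 7153 reads, or 0.871% of mouse reads (Wilson 95% interval 0.851 to 0.891), in replicate 1 and 5617 reads, or 0.755% (0.736 to 0.775), in replicate 2, a mean of 0.813% ± 0.0819 (SD, n = 2). Intervals cover counting error only and treat reads as independent. Amplified reads are not independent molecules, so the intervals may be too narrow. A single read supported 75.7% of the Prefix models in replicate 1 and 77.4% in replicate 2. The median Prefix model had 6 exons in each library, and 2300 bases in replicate 1 and 2291 in replicate 2. Protein-coding genes gave 96.9% of Prefix reads in replicate 1 and 97.3% in replicate 2.

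The name of the class describes only part of what it holds. Ends within 50 bases of an annotated transcript end of the same gene took 58.2% of Prefix reads in replicate 1 and 57.0% in replicate 2, nearly all of them at exactly the annotated base. Whether the processing moved model ends to annotated positions was not tested, and moved ends would raise this share and bear on the signals before such ends. Reads of Suffix incomplete matches, which lack first introns and not last ones, ended there for 89.9% in replicate 1 and 87.9% in replicate 2. The last annotated base of the gene was the end of 24.1% of Prefix reads in replicate 1 and 20.5% in replicate 2. Ends that were early in the strict sense, with a longer annotated transcript and over 50 bases from every annotated end, took 36.1% and 37.1% of Prefix reads in replicates 1 and 2.

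A longer annotated transcript existed for 77.0% of Prefix reads in replicate 1 and 79.0% in replicate 2. Of the other reads 89.9% in replicate 1 and 89.8% in replicate 2 were the first part of a longer new isoform in the same library, and for the rest no such isoform was found there. Among reads with an annotated longer transcript, 79.9% in replicate 1 and 76.1% in replicate 2 (mean 78.0% ± 2.71, SD, n = 2) ran more than 10 bases past the last exon they share with it, into or across the next intron. Where the longer transcript was coding, 63.7% of reads in replicate 1 and 64.7% in replicate 2 ended before its stop codon. Few ended before its start codon, 0.758% in replicate 1 and 0.720% in replicate 2.

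**Figure D1:**
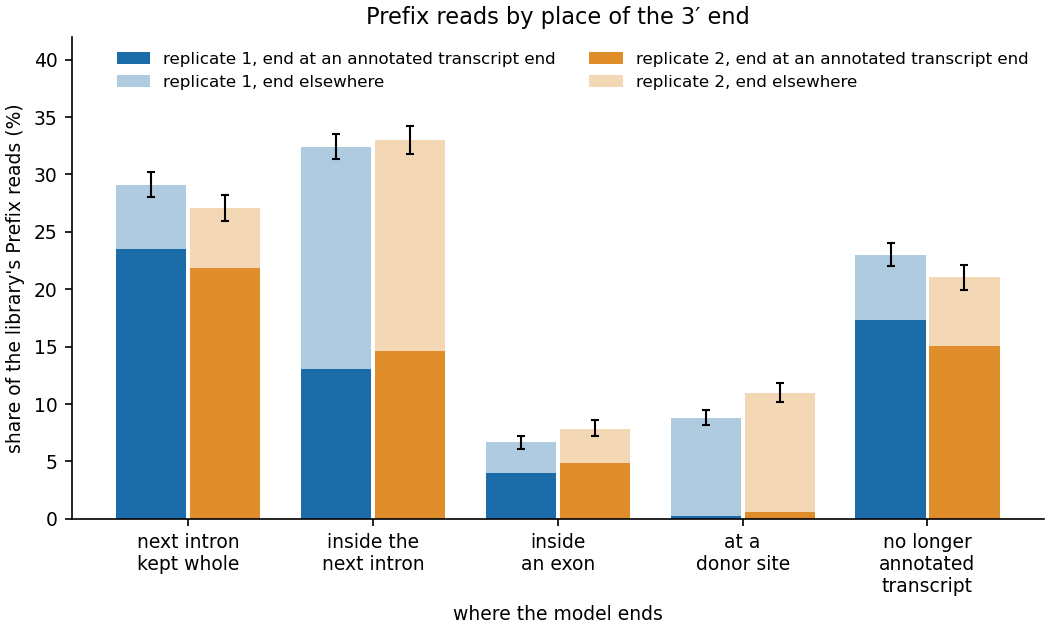
Share of each library's Prefix reads (y, percent) by where the model ends (x), with replicate 1 in blue and replicate 2 in orange. Dark bars are ends within 50 bases of an annotated transcript end, pale bars other ends, and error lines are Wilson 95% intervals on the whole bar; ends inside an intron and whole kept introns are the tallest in both libraries.

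Models that kept the next intron whole, and ended in or past the exon after it, took 2083 Prefix reads (29.1%) in replicate 1 and 1521 (27.1%) in replicate 2. They mostly ended where annotated transcripts do, at an annotated end for 80.8% of their reads in each library, and at the gene's last base for 52.5%. The kept intron was usually a small one, with a median of 552 bases over 1630 chains, against 884 bases for all introns of the same longer transcripts. An end must pass the whole intron to count here, so the definition itself favours short introns. The part of that in the difference was not tested. These models ended before the stop codon for 16.0% of reads in replicate 1 and 12.8% in replicate 2. The exons of their median model covered every coding base of the longer transcript in each library. Whether the kept intron interrupts the coding sequence was not tested.

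Pnisr, a nuclear protein rich in serine and arginine, gave the chain of this kind with the most reads at 1 shared end. It had 44 reads in replicate 1 and 49 in replicate 2, all assigned to 1 end in both libraries, 343 bases past the end of kept intron 11, which is 240 bases long. This chain was 35.8% of the gene's spliced reads in replicate 1 and 44.5% in replicate 2.

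Cdk17, a cyclin-dependent kinase, had 40 and 28 reads in replicates 1 and 2 with intron 16 kept, 24.2% and 16.7% of its spliced reads. Ddx5, an RNA helicase of splicing and transcription, had 27 and 25 reads, only 3.94% and 4.33% of its spliced reads, and its chain ended at the gene's last annotated base. Mlf2 had 24 and 23 reads, 3.01% and 3.43% of its spliced reads.

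Mbd3, a subunit of the NuRD chromatin complex, had 29 and 33 reads in replicates 1 and 2 with intron 6 kept, an intron of 76 bases. Its ends lay 551 bases apart in the libraries, at the gene's last base in replicate 1. AC149090.1, on the unplaced scaffold JH584304.1, had the widest gap among the 20 chains with the most reads, with 69 reads in replicate 1 and 34 in replicate 2, and ends 501 bases apart.

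A glutamate receptor gave a case away from all annotated ends. Gria2, the AMPA receptor subunit that limits calcium entry, had 17 reads in replicate 1 and 13 in replicate 2 with intron 15 (388 bases) kept and a shared end 2910 bases from any annotated one. They were 4.93% and 4.10% of the gene's spliced reads. The exons of the model covered every coding base of the longer transcript. Whether the kept intron interrupts the coding sequence was not tested.

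Ends inside the next intron were the largest group, with 2318 Prefix reads (32.4%) in replicate 1 and 1855 (33.0%) in replicate 2. They stopped a median of 955 bases past the donor site, in long introns. The median intron entered was 3568 bases, against 1797 bases for all introns of the same transcripts, and 9.32% were under 1000 bases against 32.9%. An end must stop before the intron does to count here, so the definition itself favours long introns. The part of that in the difference was not tested. About 2 in 5 of the reads of this group fell at an annotated end, 40.2% in replicate 1 and 44.2% in replicate 2. The median model ended at 60.2% of the gene's length in replicate 1 and 62.5% in replicate 2. Counted against the longer transcript with the fewest introns, a median of 4 introns were missing in each library. The stop codon lay beyond the end for 92.2% of reads in replicate 1 and 88.6% in replicate 2.

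Map3k10, a mixed lineage kinase upstream of JNK, had the most reads of this kind, 44 in replicate 1 and 39 in replicate 2. They ended at an annotated end 218 bases into intron 4 and held 42.1% of the coding sequence. They were 64.7% of the gene's spliced reads in replicate 1 and 50.6% in replicate 2. A second Map3k10 chain, with 7 and 8 reads, ended 506 bases into intron 9, 682 bases from the nearest annotated end.

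Sik3, a salt-inducible kinase of the AMPK family, had 33 and 24 reads in replicates 1 and 2, ending 815 bases into intron 14 after 45.5% of the coding sequence. They were 78.6% and 70.6% of its spliced reads. Caprin1, an RNA-binding protein of stress granules and neuronal RNA granules, had 34 and 39 reads, ending 1299 bases into its last intron after 97.1% of the coding sequence, and 2610005L07Rik had 36 and 38. These ends lay at the same base in both libraries and at an annotated transcript end.

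Bcan encodes brevican, a proteoglycan of the brain's extracellular matrix that is also known in a shorter, membrane-anchored form. It had 32 reads in replicate 1 and 24 in replicate 2 that ended 541 bases into intron 8, after 70.6% of the coding sequence of the longer transcript. They were a small part of this abundant gene, 4.76% and 3.96% of its spliced reads.

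Enpp5, a membrane glycoprotein of the ENPP family, had the most reads at an intronic end that no annotated transcript shares. It had 32 reads in replicate 1 and 37 in replicate 2, ending 455 bases into intron 3 and 3184 bases from the nearest annotated end. They were 46.4% and 55.2% of its spliced reads and held 70.3% of the coding sequence.

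Several neuronal genes had shared intronic ends of the same kind, named here after their values were seen. Kif5c, a kinesin-1 heavy chain of neurons, had 12 and 15 reads in replicates 1 and 2 ending in intron 23. Nav3, a neuron navigator, had 17 and 11 reads ending in intron 3, 315636 bases from the nearest annotated end. Homer3, a postsynaptic scaffold, had 8 reads in each library, ending 12 bases apart. Camkk2, a kinase that activates calcium/calmodulin kinases, had 6 and 5 reads. Such ends were not confined to neuronal genes. The antisense gene AC110206.1 had 24 and 6 reads in replicates 1 and 2, and Nupl1 and the lincRNA Fam120aos had 12 and 11 each.

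**Figure D2:**
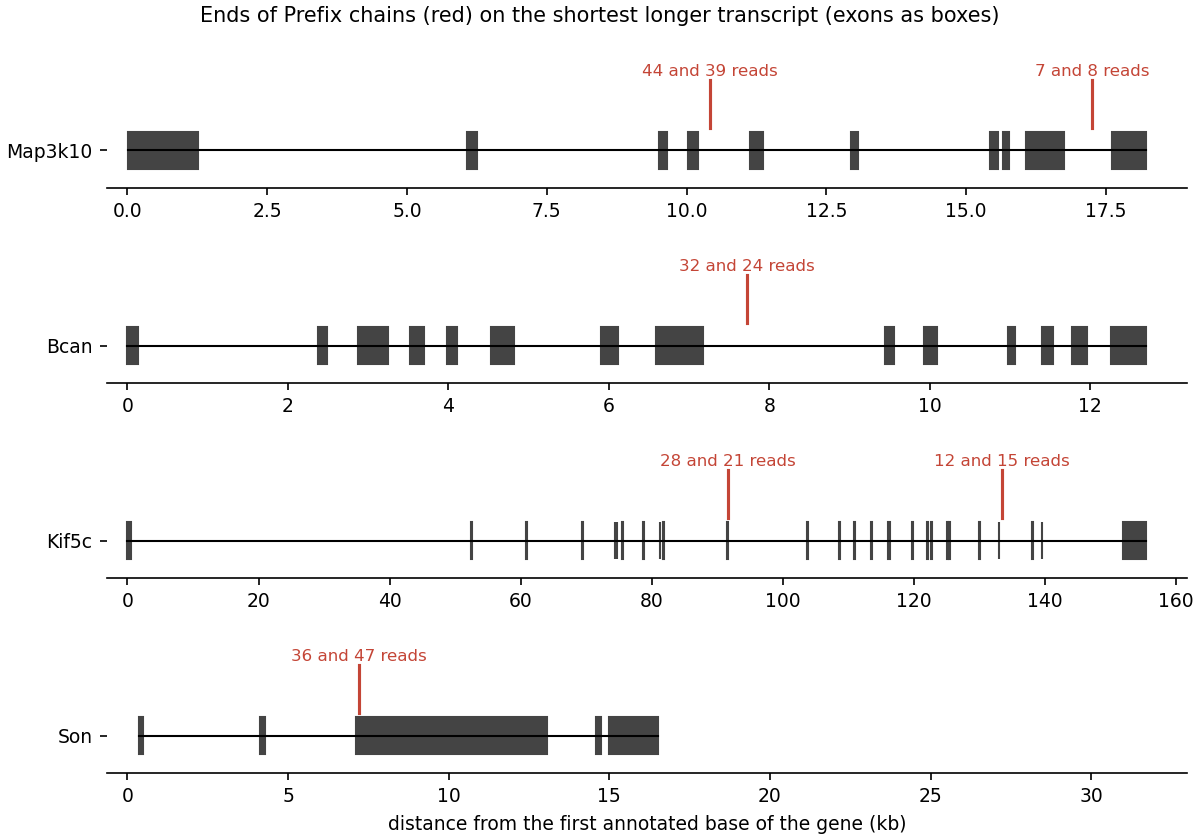
Exons (boxes) of the shortest longer annotated transcript of Map3k10, Bcan, Kif5c and Son and the ends of their named Prefix chains (red lines), by distance from the first annotated base of the gene (x, kb). The pair of numbers at each end gives its reads in replicate 1 and in replicate 2; the Son end falls near the start of its longest exon, and those of Map3k10 and Bcan fall in introns.

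Ends inside an exon were few, with 476 reads (6.65%) in replicate 1 and 442 (7.87%) in replicate 2, and many stood beside A. Of these reads 45.4% in replicate 1 and 49.5% in replicate 2 had at least 12 A among the next 20 spliced bases of the longer transcript. Such windows were 1.30% of the 2500238 windows of that length that begin before the last exon of 951 longer transcripts. These were the longer transcripts of exon ends and donor ends together. Counted once each, 30.3% of the chains in replicate 1 and 30.9% in replicate 2 had such a window. Ends at a donor site, 629 reads (8.79%) in replicate 1 and 618 (11.0%) in replicate 2, had one for 9.71% and 11.3% of reads, and for 5.23% and 6.22% of chains, in replicates 1 and 2.

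A run of A inside a transcript is a place where a primer for the poly(A) tail can bind. The part of that in these ends was not tested. A poly(A) signal within 50 spliced bases before exon and donor ends was found for 7.79% of reads in replicate 1 and 7.64% in replicate 2, against 2.56% of all 50-base windows of the same transcripts. Annotated transcript ends were no exception to the A content: of exon and donor ends at an annotated end, 53.4% of reads in replicate 1 and 49.7% in replicate 2 had at least 12 A, against 14.2% and 18.2% of those elsewhere. The compared groups also differ in end type. At annotated ends stood 287 of 476 exon-end reads and 20 of 629 donor-end reads in replicate 1. In replicate 2 these were 273 of 442 and 33 of 618. The part of end type in the contrast was not tested.

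Son, a large protein of nuclear speckles needed for splicing, shows such an end in coding sequence. It had 36 reads in replicate 1 and 47 in replicate 2, ending inside exon 3, its longest, 5881 bases before that exon's donor site. These models were 78.3% of the gene's spliced reads in each library. They held 5.22% of the coding sequence of the coding longer transcript with the fewest introns. That transcript ends 16.5 kb into this gene of 31.7 kb. Annotated spliced transcripts of Son had 0 reads in replicate 1 and 3 in replicate 2. How fully the libraries hold its long message was not tested.

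Psmd1, a base subunit of the 19S part of the proteasome, had 39 and 24 reads in replicates 1 and 2 that ended inside an exon, 29.5% and 20.2% of its spliced reads. Kmt2e, a chromatin-associated SET-domain protein, had 17 and 26 reads ending in exon 13 after 26.1% of the coding sequence, 65.4% and 78.8% of its spliced reads.

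Other exon ends followed by at least 12 A, chosen after their values were seen, had fewer reads. The translation factor Eif5 had 12 reads in each library, 4.11% and 3.68% of its spliced reads in replicates 1 and 2. The chaperone Hsp90aa1 had 12 and 11 reads, 2.59% and 2.64% of its spliced reads, and Phf20, a chromatin reader, had 6 and 11 reads, 20.0% and 36.7%. The Kmt2e, Eif5, Hsp90aa1 and Phf20 ends coincide with ends of annotated transcripts, and that of Son lies 9334 bases from one. Ccnl2, a cyclin of the splicing-linked kinase CDK11, had 46 and 34 reads in replicates 1 and 2 that ended 311 bases apart in an exon.

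**Figure D3:**
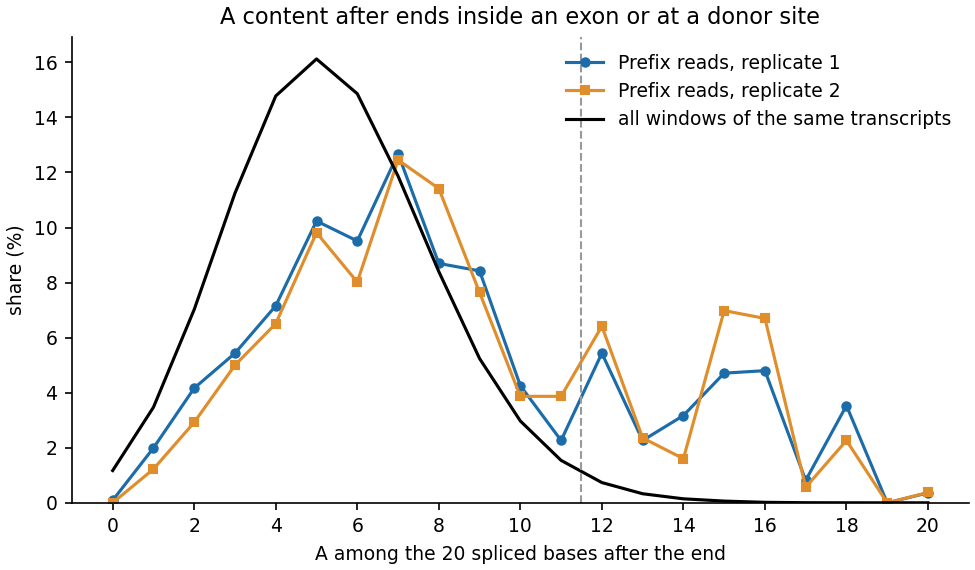
Share (y, percent) of Prefix reads in replicate 1 (blue) and replicate 2 (orange) that end inside an exon or at a donor site, by the number of A among the 20 spliced bases after the end (x), with all windows of the same transcripts in black. Right of the dashed line, at 12 A or more, lie 25.1% of reads in replicate 1 and 27.3% in replicate 2, against 1.30% of windows.

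Donor-site ends were almost all at the last exon base itself, 428 of 441 models in replicate 1 and 398 of 418 in replicate 2. With no read ends in the files used, whether each read stopped there cannot be told from the model. Sec62, a part of the protein translocation channel of the endoplasmic reticulum, had 31 reads in replicate 1 and 42 in replicate 2 whose model ended at the donor site of exon 4, 15.4% and 24.0% of its spliced reads. Eif5b, the GTPase that joins the ribosomal subunits, had 28 and 25 reads with the model ending at exon 5, 60.9% and 58.1% of its spliced reads, with 31.1% of the coding sequence.

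Kif5c and its paralog Kif5b had ends at the same exon number and at nearly the same share of the coding sequence. Kif5c had 28 reads in replicate 1 and 21 in replicate 2 whose model ended at the donor site of exon 11, after 38.9% of the coding sequence, 8.33% and 6.27% of its spliced reads. Kif5b, the widely expressed kinesin-1 heavy chain, had 4 and 9 reads whose model ended at the donor site of exon 11 of its own longer transcript, after 38.5% of the coding sequence, 3.96% and 7.96% of its spliced reads. The third member, Kif5a, had 1 Prefix read in replicate 1 and 0 in replicate 2, of 173 and 143 spliced reads.

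**Figure D4:**
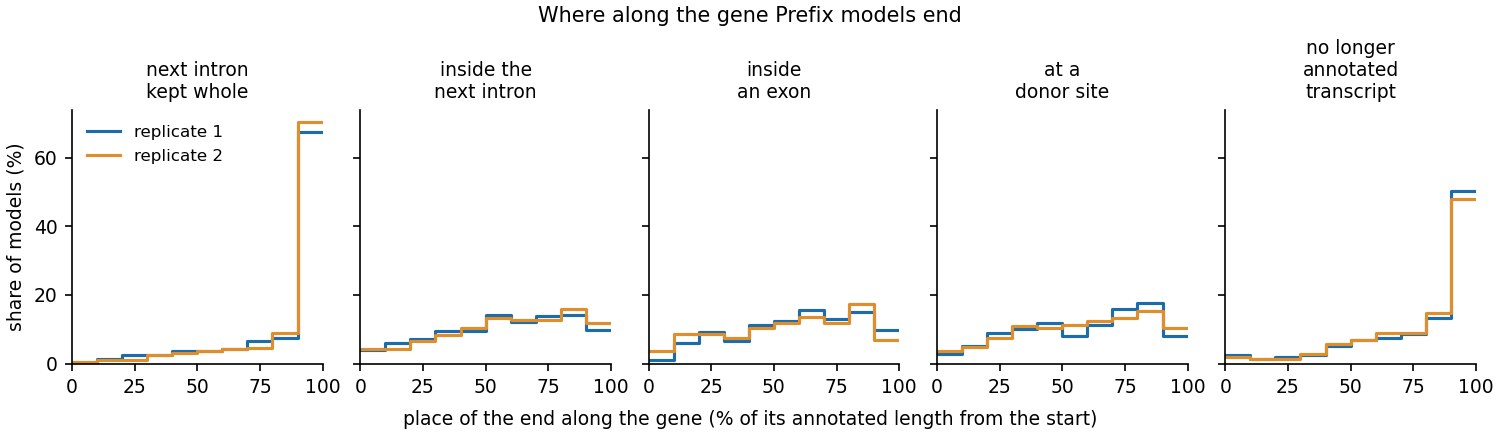
Share of Prefix models (y, percent) by place of the end along the gene (x, percent of the annotated length from its start, in steps of 10), by end type, with replicate 1 in blue and replicate 2 in orange. Kept introns and models without a longer annotated transcript pile up in the last step, and the other types spread along the whole gene in both libraries.

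A poly(A) signal stood before most reads that ended at an annotated transcript end, for kept introns as often as for annotated transcripts. AATAAA or ATTAAA was searched in the gene's sense strand within 50 bases before the end. It was found for 81.9% of kept-intron reads at annotated ends in replicate 1 and 81.3% in replicate 2, and for 68.3% and 68.5% of intronic reads at annotated ends. Annotated spliced transcripts held it for 81.3% of reads in replicate 1 and 81.1% in replicate 2. Since the kept-intron ends searched were limited to annotated ends, a like share follows in part from that choice. Of the 20 chains with the most reads in both libraries, 11 with covered sequence ended at an annotated end without being exon or donor ends. These kept an intron, ended in an intron or had no longer annotated transcript, and 9 of them held the signal. Intronic ends away from annotated ones were not analysed for sequence here.

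The last type, Prefix models with no longer annotated transcript, held 1647 reads (23.0%) in replicate 1 and 1181 (21.03%) in replicate 2. They ended at annotated ends for 75.3% of reads in replicate 1 and 71.5% in replicate 2. Chains that were Prefix in 1 library only, such as that of Aplp2 with 238 reads in replicate 1, are left out of the ranking here. Among chains that were Prefix in both libraries, Ppp2r5c led this type with 54 and 55 reads in replicates 1 and 2. This regulatory subunit of protein phosphatase 2A had 56.2% and 60.4% of its spliced reads in the chain. Both ends were annotated ones and lay 777 bases apart.

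Chains with many reads were found again and thin ones mostly were not. Of 5784 distinct chains, 969 (16.8%) were Prefix in both libraries, and these held 47.7% of Prefix reads in replicate 1 and 54.9% in replicate 2. Chains with 1 read in replicate 1 were seen in replicate 2 for 17.8%, and those with 1 read in replicate 2 were seen in replicate 1 for 24.1%. All 73 chains with at least 10 reads in replicate 1 and all 66 in replicate 2 were seen in the other library. Models seen once were found again more often among annotated transcripts, at 43.0% for replicate 1 and 49.6% for replicate 2, and less often among models with a new splice site, at 11.0% and 12.2%.

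The ends of the matched chains, which were not used to match them, mostly fell together, though ends moved to annotated positions would coincide too. Of the 969 chains, 772 (79.7%, Wilson 95% interval 77.0 to 82.1) ended within 50 bases in both libraries and 617 at the same base. Of 388 matched chains that had no annotated end within 50 bases in either library, 302 (77.8%, 73.4 to 81.7) ended within 50 bases of each other and 202 at the same base. For 258 of these, whose ends also lay past the donor site in both libraries, 201 (77.9%, 72.5 to 82.5) ended within 50 bases of each other and 112 (43.4%) at the same base. The end type was the same in both libraries for 906 chains (93.5%).

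**Figure D5:**
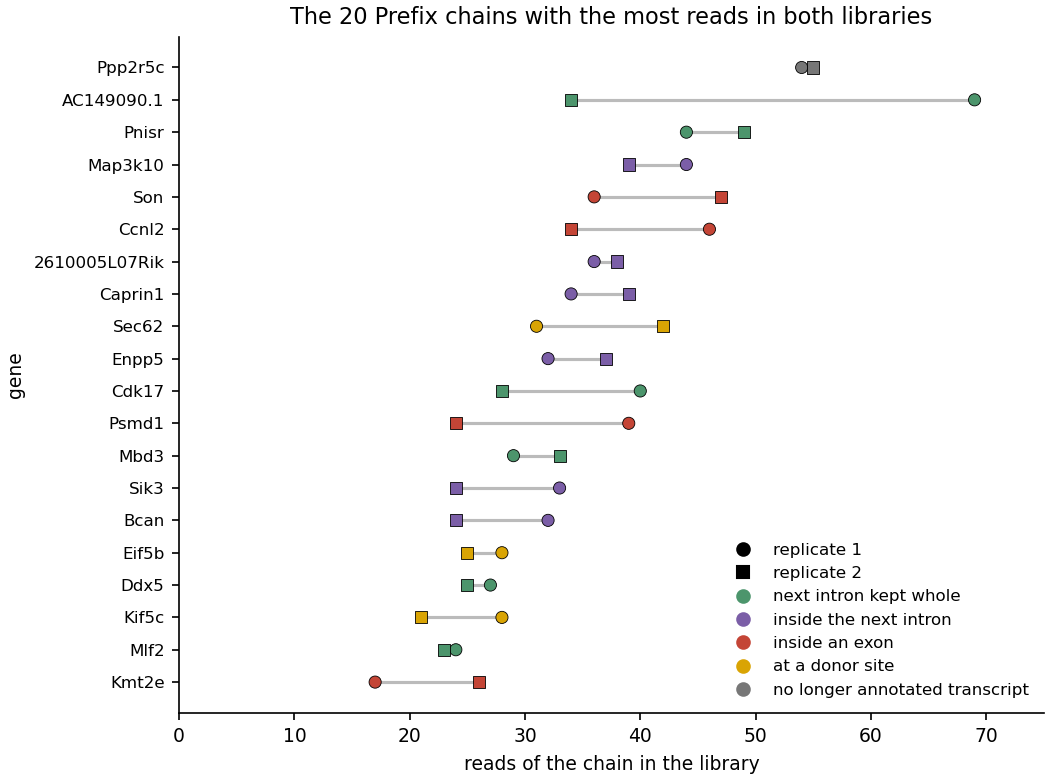
Reads per library (x) of the 20 Prefix chains with the most reads in both libraries (y, by gene), with circles for replicate 1 and squares for replicate 2, coloured by end type in replicate 1. The values run from 17 to 69 reads, and AC149090.1 shows the widest gap, with 69 reads in replicate 1 and 34 in replicate 2.

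Among chains that were Prefix in both libraries, the 20 with the most reads held 10.1% of Prefix reads in replicate 1 and 11.9% in replicate 2. Chains that were Prefix in 1 library only are not among them. In both libraries 6 ended inside an intron, 5 kept an intron, 4 ended inside an exon, 3 ended at a donor site and 1 had no longer annotated transcript, while the type of AC149090.1 differed. The end lay at the same base in both libraries for 16 of the 20.

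No Prefix chain was called different between the libraries with their mouse reads as library sizes. By Fisher's exact test, two-sided, with Benjamini-Hochberg adjustment over all 8072 chains with at least 20 reads over both libraries, 0 of 74 Prefix chains were called at an adjusted p under 0.05. Of all chains 0.979% were called. At an unadjusted p under 0.05 there were 3 Prefix chains. With median-of-ratios library sizes 1 was called, AC149090.1 (adjusted p = 0.0351). The median log2 ratio of replicate 1 over replicate 2 was -0.05 for the Prefix chains and 0.02 for all chains. The test sets 1 library against 1, so its p covers counting error alone, and a missed threshold does not show that the chains are equal.

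Prefix reads were spread over many genes at a low share, and led a few. Of 14928 genes with spliced reads 3685 had Prefix reads in either library and 1262 in both. Genes with Prefix reads had a median of 57 spliced reads over both libraries and those without had 14. Of 5211 genes with at least 20 spliced reads in each library, 125 had a mean Prefix share of at least 10% and 11 of at least 50%.

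The highest shares belonged to genes whose chief chain is described above, apart from Rtf1 and Ankrd11. Kmt2e had 24 Prefix reads of 26 spliced reads in replicate 1 and 30 of 33 in replicate 2, a mean of 91.6% ± 0.989 (SD, n = 2). Rtf1, a subunit linked to the Paf1 elongation complex, had 17 of 20 and 25 of 32, a mean of 81.6% ± 4.86. Ankrd11, a chromatin regulator, had 35 of 64 and 32 of 57, a mean of 55.4% ± 1.03, with the chief chain ending in intron 7 at an annotated end after 9.38% of the coding sequence. The others were Son at 78.3% ± 0.0512, Map3k10 at 76.9% ± 7.72, Sik3 at 74.6% ± 5.64, 2610005L07Rik at 63.8% ± 1.77, Eif5b at 62.9% ± 0.179, Ppp2r5c at 60.5% ± 1.53 and Enpp5 at 56.7% ± 4.30. Annotated transcripts had from 0 reads in each library for Kmt2e to 22 and 15 for Enpp5. The coding sequence of the coding longer transcript with the fewest introns was 5604 bases in Kmt2e, 6378 in Son and 1431 in Enpp5. The median model length over reads was 2252 bases in replicate 1 and 2210 in replicate 2. How fully long messages were read was not tested, so these shares of reads are not shares of the messages.

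The Prefix share of the gene differed between the libraries for 5 of the 5211 genes (0.096%) by Fisher's exact test with the same adjustment, and 40 had an unadjusted p under 0.05. Aplp2, a homolog of the amyloid precursor protein, had 238 Prefix reads in replicate 1 and 0 in replicate 2 (adjusted p = 4.49e-87). The same chain had 238 reads in replicate 2 too, under the class of new combinations of known splice sites. Suds3, of the Sin3 corepressor complex, had 5 Prefix reads in replicate 1 and 78 in replicate 2 (adjusted p = 3.43e-27), and its chief chain had 82 and 78 reads under either class. Rbck1, Dus1l and Commd8 were the other genes called. When the chains that were Prefix in either library were counted under any class in both, 0 of 5211 genes were called, so the 5 calls followed the class given to a chain.

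Of the gene lists, that of transport genes held the largest Prefix share. The 13 genes of microtubule and vesicle transport had Prefix reads in 11 members, 76 of 1164 spliced reads (6.53%) in replicate 1 and 78 of 1082 (7.21%) in replicate 2. Over all genes the share was 1.09% in replicate 1 and 0.966% in replicate 2. None of the 9 members tested was called between the libraries, where 0.096% of all 5211 genes tested were. Kif5c gave 42 and 41 of these reads. Map1b, a microtubule-associated protein of growing axons, had 8 Prefix reads of 12 spliced reads in replicate 1 and 16 of 16 in replicate 2, all from 1 chain ending inside an exon. Kif1b, a kinesin that carries synaptic vesicle precursors, had 6 and 3 Prefix reads.

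Synaptic genes had a Prefix share near that of all genes. Their 15 members held 82 Prefix reads of 7830 spliced reads (1.05%) in replicate 1 and 66 of 6705 (0.984%) in replicate 2, with 13 members having any. Gria2 had 32 and 23 Prefix reads, Ppp3ca, the catalytic subunit of calcineurin, 14 and 7, Grin1, the common NMDA receptor subunit, 10 in each library, and Syn1, a synaptic vesicle phosphoprotein, 8 and 10.

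The cleavage and polyadenylation genes had a Prefix share near that of all genes, and the U1 and kinase genes a higher one. The cleavage and polyadenylation list had them in 11 of 22 members with spliced reads, 10 of 1173 spliced reads (0.853%) in replicate 1 and 12 of 996 (1.20%) in replicate 2. The most were 4 reads each for the poly(A) polymerase Papola, 2 in each library, and the scaffold Sympk, 0 and 4. Cpsf6, of the complex that guides the choice of site, had 3 and 0, and Cstf1, of the cleavage stimulation factor, 2 and 1.

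The U1 and transcription kinase list held 17 of 366 spliced reads (4.64%) in replicate 1 and 13 of 303 (4.29%) in replicate 2. Luc7l2, a U1-associated splicing factor, gave 12 and 6 of them, 34.3% and 23.1% of its own spliced reads, Luc7l3 gave 3 and 4, the elongation kinase Cdk9 and the U1 protein Snrnp70 gave 2 reads each over both libraries, and 6 of the 11 members with spliced reads had 0. Genes known for early-ending isoforms held 9 of 431 (2.09%) in replicate 1 and 4 of 449 (0.891%) in replicate 2. Among them Ntrk2, the BDNF receptor, had 3 and 2 Prefix reads, Fgfr2 3 and 0, Flt1, a VEGF receptor, 1 in each library, Ntrk3, the NT-3 receptor, 1 and 0, and 10 of 16 had 0. An annotated short form counts as an annotated transcript and not as Prefix. No member tested in these lists was called between the libraries, where 0.096% of all genes tested were.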

How the data were processed

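Values are whole-number counts of reads for each model, not normalized, as deposited by the authors and per the file headers. Other deposited columns give exon number, length in bases and exon positions of each model, per the file headers. Per the labels the assembly was mm10; GENCODE M21 is named in the deposited text. Which aligner and caller were used is not given in the sources used here. Each model has a single end, so spread of read ends is not analysed here.

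A longer annotated transcript shares all introns of the model in order and goes on. Where there were several, missing introns were counted against the one with the fewest introns. Shares of coding sequence held were taken from the coding one with the fewest introns. Ends within 10 bases of its donor site were called donor ends, and ends within 50 bases of a GENCODE end annotated. Without a genome, sequence came from GENCODE M21 transcripts: the 20 bases after the end were covered for 28.3% of models in replicate 1 and 28.7% in replicate 2, and the 50 before it for fewer than 80%, so these checks over all members are void. The sequence at 1 of the named ends is not reported here. Spliced windows of the longer transcript, chosen after seeing the data, were used for exon and donor ends, and only ends at annotated ones (97.1% and 97.2% covered) were searched for signals otherwise.

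Shares are given per library with Wilson intervals (95%) and as mean ± SD (n = 2). Fisher tests and adjustment used scipy 1.17.1, and were tested on simulated data. Log2 ratios added 0.5 reads. A count of 0 allows up to 3 reads. TMM factors came from edgeR 4.0.16 and size factors from DESeq2 1.42.0, as alternatives only, since 1 library against 1 gives those tests no spread. The members and lists were chosen with earlier results of these data known. Named are the 20 chains with the most reads in both libraries, the 10 genes with the highest share, the 10 chains with most reads past the last exon and ends within 50 bases in both libraries, and the 4 genes of each list with the most Prefix reads (ties not all named); others were chosen after their values were seen.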

Additional observations from a re-analysis of the deposited data

Results flagged for a closer look

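Prefix models also occurred in genes that are not annotated, outside the models described. They held 8 reads in replicate 1 and 9 in replicate 2, over 8 models in replicate 1 and 7 in replicate 2, above the 3 reads that a count of 0 allows, and were not analysed further.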

How the results depend on the processing

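The Prefix share of reads, 0.813%, was 0.484% with models of at least 2 reads, 1.03% of spliced reads of known genes and 0.633% with a longer annotated transcript required, the last chosen after seeing the data. It ranged from 0.755% to 0.871% without either replicate. The share past the last annotated exon stayed between 76.1% and 79.9% under all settings tried. The share at annotated ends (57.6%) was 48.2% with each chain counted once, and 57.0% to 58.2% without either replicate. The A-rich share of exon and donor ends (26.2%) was 11.8% for 6 A in a row, 42.4% for chains of at least 5 reads, 12.9% with each chain counted once and 25.1% to 27.3% without either replicate. The poly(A) signal share there (7.72%) was 5.17% for AATAAA alone, 11.3% in 100 bases, 7.23% per chain and 7.64% to 7.79% without either replicate; at annotated ends (70.7%) it was 59.3% for AATAAA alone, 66.5% per chain and 68.3% to 73.2% without either replicate. Chains in both libraries fell from 969 to 337 with at least 2 reads in each. Matched ends within 300 bases were 83.6%. With median-of-ratios factors, which came out as 1 for both libraries, 1 Prefix chain was called, AC149090.1 (adjusted p = 0.0351). Genes called fell from 5 to 2 with Prefix and annotated transcripts only, and to 0 with chains counted under any class. The planned shares over genomic windows of all members were not run, since too little sequence was covered. Where no value or construction above shows it, the cause was not tested. No paired analysis was possible because there is 1 group. Leaving out a library gives no value for counts between libraries. Most chains of 1 read were not seen again, and the part of depth in that was not tested.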
